A study of Homo sapiens with 6 samples.

Results

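The intercellular adhesion molecules ICAM1 to ICAM5 and the vascular cell adhesion molecule VCAM1 were examined in 1833 cells, a bone-tropic subline of the human breast cancer line MDA-MB-231. The members were all probe sets that the platform annotation assigns to these 6 genes alone. There were 9 such probe sets, 3 for ICAM1, 2 for ICAM2 and 1 for each of ICAM3, ICAM4, ICAM5 and VCAM1, out of 54613 probe sets tested. At the level of genes, where a gene is read by its brightest probe set, they are 6 of 19775. The platform was the Affymetrix HG-U133 Plus 2.0 array, with 6 arrays in all, 3 of control cells and 3 of cells labelled S153E-RKIP. RKIP, the product of PEBP1, binds Raf-1 and restrains MEK and ERK, and S153E-RKIP is a mutant described for this series as a more potent Raf-1 inhibitor. It was delivered by a lentiviral vector with puromycin selection, control cells carried the vector, and all cells grew in medium with 10% serum. Nothing in the labels says whether the transduced cells were a pool or a clone. The comparison asks which of the adhesion genes differ between the arrays labelled S153E-RKIP and control. The labels of the S153E-RKIP samples conflict with each other, as described below.

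These proteins belong to the immunoglobulin superfamily and are the surface ligands to which leukocyte integrins attach. ICAM1 is low on resting cells and is switched on by tumour necrosis factor, interleukin-1 and interferon gamma, largely through NF-kB and STAT factors. ICAM2 is displayed constitutively by endothelium and platelets, ICAM3 by leukocytes, ICAM4 by red cells as the Landsteiner-Wiener antigen, and ICAM5, also called telencephalin, by forebrain neurons. VCAM1 is the NF-kB-inducible endothelial ligand of the integrin that ITGA4 and ITGB1 form, and in breast cancer it is known for aiding bone metastases by drawing osteoclast precursors.

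ICAM1 and VCAM1 are the members best known as NF-kB targets, so the sequences before their annotated starts are shown first. They come from RefSeq (GRCh38.p14), which held an entry for 5 of the 6 members, the exception being ICAM2. The ICAM1 stretch is chr19:10270870-10271119 and the VCAM1 stretch is chr1:100719492-100719741, both on the plus strand and both 250 bases long. Capitals mark matches on either strand to GGNNNTTCC (an NF-kB-like motif), TTCNNNGAA (a STAT motif) and TATAAA (the box that places the basal transcription machinery).
ICAM1: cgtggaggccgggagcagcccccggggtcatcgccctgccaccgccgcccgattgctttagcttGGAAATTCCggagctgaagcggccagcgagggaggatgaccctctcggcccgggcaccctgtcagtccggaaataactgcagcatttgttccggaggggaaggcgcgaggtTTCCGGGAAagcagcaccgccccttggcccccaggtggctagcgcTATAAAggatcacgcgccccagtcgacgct
VCAM1: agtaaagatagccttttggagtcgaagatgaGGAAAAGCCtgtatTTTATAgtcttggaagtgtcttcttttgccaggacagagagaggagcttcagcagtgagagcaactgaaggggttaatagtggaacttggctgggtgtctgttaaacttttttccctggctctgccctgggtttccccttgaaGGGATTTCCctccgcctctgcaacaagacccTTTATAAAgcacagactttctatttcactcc

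Distances were counted from the annotated start, with -1 the base just before it. In ICAM1, GGNNNTTCC matched once, at -186 to -178, and the motif fitted either strand there. In VCAM1 it matched at -219 to -211 and at -62 to -54, and the second match overlapped the NF-kB consensus motif at -62 to -53. GGNNNTTCC was present in 20.1% of all 35116 promoter windows of 300 bases, and the NF-kB consensus motif in 11.3%. The STAT motif matched ICAM1 at -75 to -67 and none of the VCAM1 window, against 7.66% of all windows. Both windows had a TATA box close to the start, at -30 in ICAM1 and at -31 and -29 (overlapping, on opposite strands) in VCAM1, and 11.5% of all windows held TATAAA. VCAM1 held a further TATAAA on the opposite strand at -205. The GC box motif GGGCGG, bound by Sp1, matched ICAM1 at -206 and -59 and was in 45.0% of windows. The AP-1 motif TGANTCA matched no member's window and was present in 7.71% of all. Of the other members with an entry, ICAM4 held the NF-kB consensus motif at -57 and ICAM5 held 2 GC boxes. ICAM3, which has 3 annotated starts, held the consensus motif before 1 of them, and GGNNNTTCC and 2 GC boxes around another. Among the 5 members with an entry, ICAM1 alone thus had a GGNNNTTCC and a STAT motif in the same window. ICAM2 could not be compared, and the share of all windows with both motifs was not counted. A match is a string of letters and was not tested for binding.

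**Figure D1:**
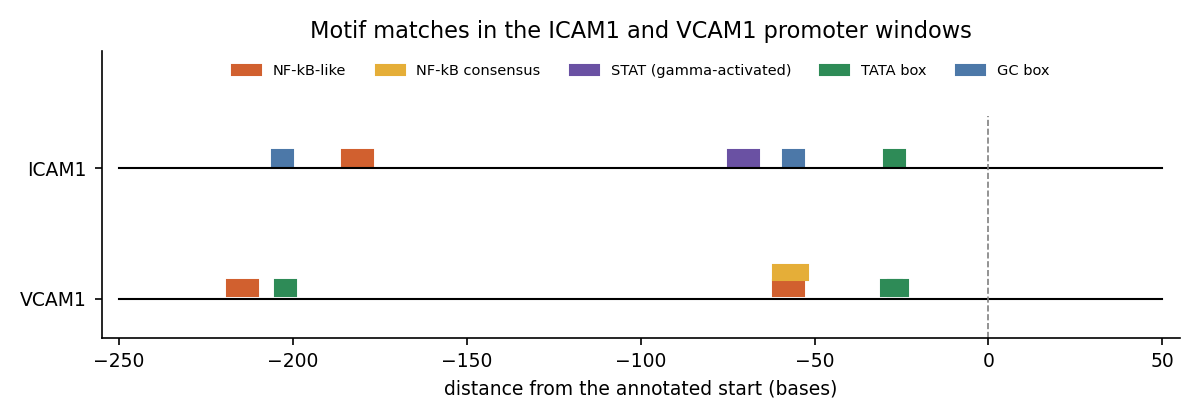
Motif matches (coloured boxes) along the ICAM1 and VCAM1 promoter windows, with the distance from the annotated start in bases on the horizontal axis and the start as a dashed line. ICAM1 has its NF-kB-like match at -186 and VCAM1 has one at -62 under a match to the NF-kB consensus.

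On the arrays labelled S153E-RKIP, ICAM1 rose 2.25-fold and ICAM2 rose 1.38-fold, while ICAM3, ICAM4, ICAM5 and VCAM1 did not pass the test. Thus 2 of 6 genes were called higher and none lower (limma, adjusted p under 0.05 over all genes), where 0.688% of all genes were called higher and 1.21% lower. Calls over all genes were higher in 36.2% of cases, and in 24.6% once array medians were set equal. Of the 9 probe sets, 5 were called higher, against 0.366% of all probe sets. All 3 probe sets of ICAM1 and both of ICAM2 were among the 5. The arrays of the groups did not overlap, with S153E-RKIP higher, for the same 2 genes and 5 probe sets, as they did for 9.31% of all genes and 8.09% of all probe sets. The median difference of the 6 genes was -0.0032, beside 0.010 over all genes. Values are log2 RMA signals and differences are S153E-RKIP minus control. Nothing says whether the biological replicates came from separate cultures, so the p-values then measure spread between samples that could be technical.

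The checks of the labels and of the cells bear on every direction given here. PEBP1 read 11.76 ± 0.026 in control and 11.66 ± 0.064 (SD, n = 3 each) on the arrays labelled S153E-RKIP, with an adjusted p of 0.473 in limma, so it did not show the introduced gene. Whether its probe sets can read the introduced copy was not examined. The source name of the same samples mentions shRNA against HMGA2, and HMGA2 read 9.79 and 9.77. The arrays are therefore called by their label. Markers of a mesenchymal-like breast cancer line were high, with VIM at 14.47, CD44 at 12.23 and EGFR at 11.50 in control. Of 4 markers listed as low or absent in such lines, 2 lay below the median of all genes, among them CDH1 at 4.14, and 2 did not, among them EPCAM at 8.30. S153E-RKIP replicate 1 stood apart from replicates 2 and 3 of its group on the second principal component (21.6% of the variance).

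ICAM1 is described by its 3 probe sets, whose suffix _s_at marks probes that match several transcripts. On the brightest, 202637_s_at, the signal was 7.97, 8.43 and 8.23 in control replicates 1, 2 and 3, and 9.25, 9.44 and 9.44 in S153E-RKIP replicates 1, 2 and 3. The lowest array labelled S153E-RKIP thus lay 0.82 above the highest control. Means were 8.21 ± 0.23 and 9.38 ± 0.11 (SD, n = 3 each), and the gene-level rise was 1.17, with an SE of 0.11, a 95% confidence interval of 0.91 to 1.43 and a limma adjusted p of 0.00194. This was the 20th largest rise among the 19775 genes.

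On 202638_s_at the controls read 6.50, 6.99 and 6.30, and the arrays labelled S153E-RKIP read 7.99, 7.82 and 7.88. On the dimmest ICAM1 probe set, 215485_s_at, the controls read 6.33, 6.40 and 6.24 and the others 7.04, 7.28 and 7.03. Control replicate 2 was the highest control on all 3 probe sets, and on none of them did the groups overlap. The differences were 1.30 (SE 0.15) on 202638_s_at and 0.80 (SE 0.085) on 215485_s_at, with limma adjusted p of 0.00574 and 0.00333 over all probe sets. The 95% confidence intervals, 0.95 to 1.65 and 0.60 to 0.99, overlap each other, and whether the probe sets of ICAM1 differ in their rise was not tested. With the mean of the 3, the rise was 1.09. ICAM1 kept its call whichever array was left out, with differences from 1.05 to 1.28, and without S153E-RKIP replicate 1 it was 1.23 (limma adjusted p = 0.00981, within a range of 0.00284 to 0.0263 over the arrays left out). On 202638_s_at alone the call was lost when control replicate 1 (adjusted p = 0.0610), S153E-RKIP replicate 2 (0.0574) or S153E-RKIP replicate 3 (0.0507) was left out.

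**Figure D2:**
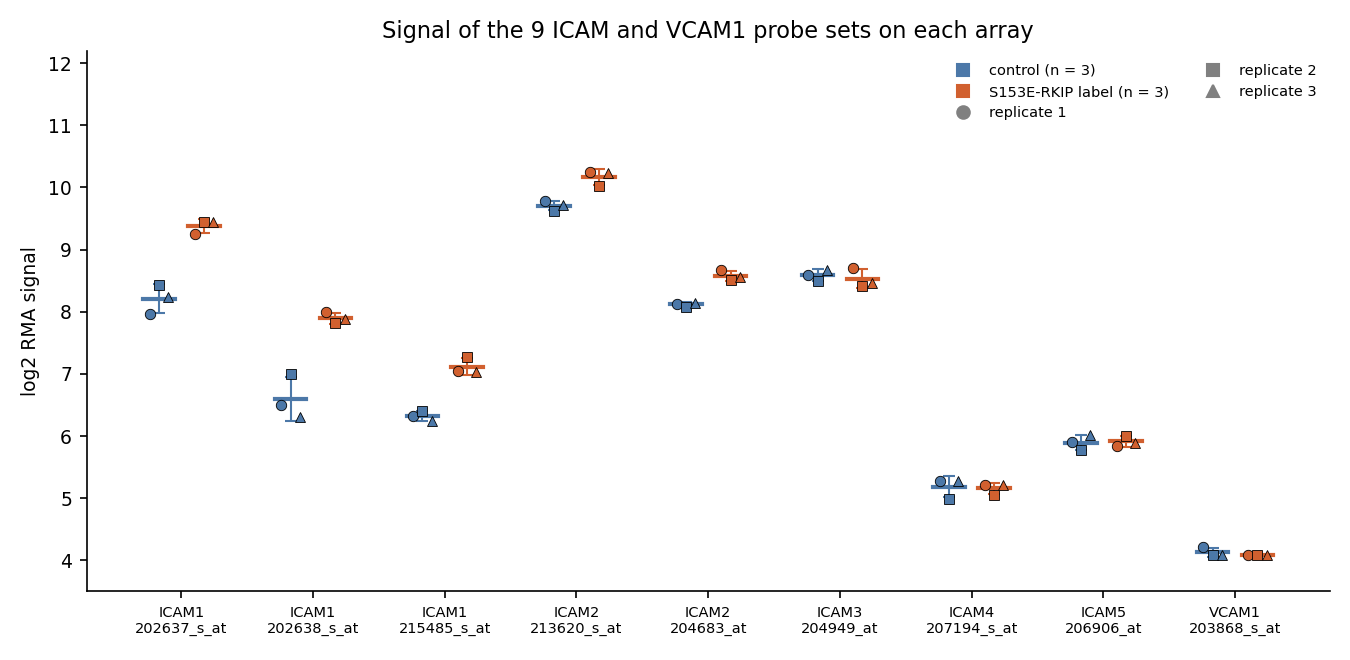
The log2 RMA signal (vertical axis) of the 9 probe sets on each array, with bars at the mean and the SD of 3 arrays and marker shapes for the replicate number. The groups are separate on the 3 probe sets of ICAM1 and the 2 of ICAM2 and overlap on the other 4.

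ICAM2, the short ICAM of endothelium and platelets, is not usually counted among the cytokine-induced members. On 213620_s_at, its brighter probe set, controls read 9.78, 9.63 and 9.71 and the arrays labelled S153E-RKIP read 10.25, 10.03 and 10.23. Replicate 2 was the lowest of both groups, and the groups were 0.25 apart at their nearest. Means were 9.71 ± 0.076 and 10.17 ± 0.12 (SD, n = 3 each), with a difference of 0.46 (SE 0.077, 95% confidence interval 0.29 to 0.64, limma adjusted p = 0.0234 over genes).

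The other ICAM2 probe set, 204683_at, gave nearly the same difference from a dimmer signal. Controls read 8.13, 8.08 and 8.15, and the others 8.67, 8.51 and 8.55, again without overlap. Its difference was 0.46 (SE 0.066), with a limma adjusted p of 0.0151 over probe sets. The size of the ICAM2 rise held when an array was left out, from 0.42 to 0.53 at the gene level, but its call did not. The limma adjusted p was 0.0907, 0.114 and 0.110 without control replicate 1, 2 or 3, and 0.0725 and 0.0862 without S153E-RKIP replicate 1 or 3, while without replicate 2 the call held (0.0267). Over all genes, the count of calls fell as well with fewer arrays, from 376 to between 124 and 303. In the RefSeq annotation ICAM2 overlaps PRR29, and whether the probes lie in the shared stretch was not examined.

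ICAM3, the leukocyte ICAM, had a signal above the median of all genes (6.64) and no call. Its probe set read 8.60, 8.50 and 8.68 in control and 8.71, 8.42 and 8.47 on the arrays labelled S153E-RKIP. S153E-RKIP replicate 1 was the highest of the 6 and replicate 2 the lowest, so the groups overlapped fully. Its difference of -0.057 had an SE of 0.089 and a 95% confidence interval of -0.26 to 0.15 (limma adjusted p = 0.789).

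ICAM4, the red cell member, read 5.28, 4.99 and 5.28 in control and 5.20, 5.06 and 5.21 in the other group. ICAM5, the neuronal member, read 5.90, 5.77 and 6.01 in control and 5.84, 6.01 and 5.90 in the other group. Both were dimmer than the median gene (6.64), a range in which background was not separated from signal, and both had overlapping groups. The 95% confidence interval of the difference was -0.23 to 0.18 for ICAM4 and -0.16 to 0.20 for ICAM5, with limma adjusted p of 0.920 and 0.932. The sign of either difference turned when certain arrays were left out, so neither gene has a direction here.

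VCAM1, the other cytokine-inducible member, also had a signal below that of the median gene. It read 4.21, 4.09 and 4.09 in control and 4.09, 4.09 and 4.08 on the arrays labelled S153E-RKIP. On 4 of the 6 arrays the deposited value was the same to 6 decimals, so the group SD of 0.0041 on the arrays labelled S153E-RKIP is not an ordinary replicate error. Its difference of -0.043 had no call (95% confidence interval -0.18 to 0.091, limma adjusted p = 0.755). At this signal a low transcript level cannot be told apart from background, and no fold is given. The upper ends of the 4 intervals, from 0.091 for VCAM1 to 0.20 for ICAM5, lie below the lower ends for ICAM2 (0.29) and ICAM1 (0.91), although for the 3 dim genes a change hidden under background would not enter the interval.

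**Figure D3:**
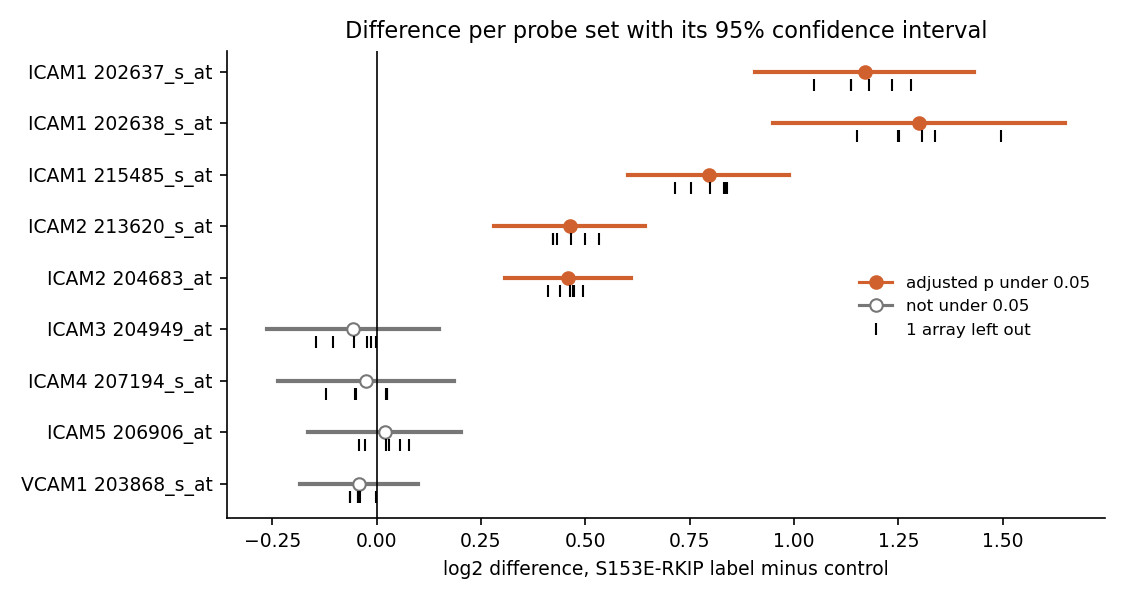
The log2 difference between groups (horizontal axis) for each probe set, with its 95% confidence interval from limma and, as ticks below it, the differences with 1 array left out. The 5 probe sets of ICAM1 and ICAM2 lie between 0.46 and 1.30, and the 4 others have intervals that span 0.

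Beside a shared fold, some of the members share a place in the genome. In the RefSeq order ICAM1, ICAM4 and ICAM5 follow each other directly on chromosome 19, with ICAM3 a few genes further on, whereas ICAM2 is on chromosome 17 and VCAM1 on chromosome 1. Within that row ICAM1 alone was called, and the differences of ICAM4 and ICAM5, the next 2 genes in the row, were -0.026 and 0.019. The nearest 2 protein-coding genes on either side of each member, chosen by position after the members' values were known, gave 15 genes, of which 14 were measured. None was called in limma, against 1.9% of all genes called in either direction. The unadjusted p was under 0.05 for 3 of the 14, as it was for 15.7% of all genes. On chromosome 19 the 7 neighbours (S1PR2, MRPL4, ZGLP1, FDX2, RAVER1, TYK2 and CDC37) had differences from -0.096 to 0.17. Next to ICAM2, ERN1, a sensor of unfolded proteins, read 7.57 ± 0.18 in control and 8.01 ± 0.25 (SD, n = 3 each) on the other arrays, a difference of 0.45 (SE 0.13) that missed the threshold (adjusted p = 0.174, limma).

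The genes closest to ICAM1 and ICAM2 in pattern were found by the root mean square difference of their centred log2 values over the 6 arrays, which is a description and carries no test. For ICAM1 they were CLDN1, a tight junction protein (0.079), NFKBIZ, a nuclear IkB protein (0.091), and GSAP (0.11). CLDN1 went from 7.54 ± 0.12 to 8.76 ± 0.054 (SD, n = 3 each), a difference of 1.22, NFKBIZ had a difference of 1.04 and GSAP one of 1.11. For ICAM2 they were PPIF, a mitochondrial cyclophilin (0.045), RGS2, a regulator of G protein signalling (0.048), and the noncoding transcript COPB2-DT (0.052), with differences of 0.43, 0.43 and 0.41. The limma adjusted p of PPIF, RGS2 and COPB2-DT was 0.0460, 0.0514 and 0.0217. With 1 array left out, PPIF lost its call whichever array it was (0.0546 to 0.187), and COPB2-DT lost its call for 5 of the 6 arrays.

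The partners of the family were taken from lists drawn up with earlier results of these data known. None of 10 integrin and lectin receptors of the ICAMs and VCAM1 passed the limma test, against 1.9% of all genes. The unadjusted p was under 0.05 for 1 of them (15.7% of all genes), and their median difference was 0.051. The chains of the leukocyte integrins that bind ICAM1 were dim, with ITGAL at 5.77 and ITGAM at 5.62 in control. ITGB2, their shared beta chain, read 7.86 ± 0.044 in control and 7.73 ± 0.069 (SD, n = 3 each) on the other arrays, a difference of -0.13 (limma adjusted p = 0.341). ITGA4, the alpha chain for VCAM1, was at 4.25 in control, while ITGB1, which pairs with it and with many other alpha chains, was at 13.34, and the differences were -0.061 and 0.084. ITGA9, an alternative alpha chain for VCAM1, had the largest difference of the list, 0.27 (adjusted p = 0.284).

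Inside the cell, ICAM tails are tied to actin by ezrin, radixin and moesin and by actinins. None of the 12 measured linker and docking genes was called in limma, against 1.9% of all genes. An unadjusted p under 0.05 was found for 3, against 15.7% of all genes. All 12 had a difference below 0, from -0.19 to -0.017, while 10609 of all 19775 genes had one above 0. Their median was -0.072, beside 0.010 over all genes. All 12 were brighter than the median gene, and genes above the median level had a median difference of -0.029. The list was not tested as a group.

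Of 27 other immunoglobulin superfamily adhesion genes, CD47 was called higher and none lower, against 0.688% and 1.21% of all genes. CD47, an integrin-associated receptor for thrombospondin and a signal against phagocytosis, went from 11.36 ± 0.026 to 11.76 ± 0.043 (SD, n = 3 each), a difference of 0.40 (SE 0.055, limma adjusted p = 0.00975). Its adjusted p was 0.0687, 0.0641 and 0.0562 without control replicate 1, 2 or 3, and averaged over its probe sets the difference was 0.23 (adjusted p = 0.0666). Without probe sets ending in _x_at or _s_at, no gene of the list was called. The list's median difference was 0.033, beside 0.010 over all genes. The unadjusted p was under 0.05 for 3 of the 27, against 15.7% of all genes. Among 9 selectins and selectin ligands limma made no call, against 1.9% of all genes. The unadjusted p was under 0.05 for 4 of them, against 15.7% of all genes, and their median difference was 0.059. PODXL, a sialomucin that can carry selectin ligands, had the lowest difference, -0.47, which missed the threshold (adjusted p = 0.0566) although its groups did not overlap. Of the list, 1 gene was called lower with equal array medians, with trend and robust estimation, with either filter on dim genes and when probe sets were averaged by gene.

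Sheddases cut ICAM1 and VCAM1 from the surface, ADAM17 being the best known. Of 11 genes, the inhibitor TIMP3 among them, ADAM8, a leukocyte-type metalloprotease, was called higher and none lower. The shares over all genes were 0.688% higher and 1.21% lower. The list median was 0.0067, beside 0.010 over all genes. The unadjusted p was under 0.05 for 4 of the 11, against 15.7% of all genes. ADAM8 went from 8.09 ± 0.14 to 8.62 ± 0.16 (SD, n = 3 each), a difference of 0.53 (SE 0.099, limma adjusted p = 0.0387). The call was lost without control replicate 1, 2 or 3 (0.171, 0.0683 and 0.156) and without S153E-RKIP replicate 2 or 3 (0.162 and 0.114).

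Upstream of ICAM1 stand the cytokines that induce it. Of 16 inducing cytokines and receptors, IL1A, IL1B and IL6 were called higher and none lower, against 0.688% and 1.21% of all genes. The list median was 0.18, beside 0.010 over all genes. The unadjusted p was under 0.05 for 7 of the 16, against 15.7% of all genes. IL1A had a difference of 2.99, IL1B of 2.21 and IL6 of 1.70, and each kept its call whichever array was left out. IL1A has a second, dimmer probe set with a difference of -0.21. TNF, the other classical inducer, read 4.78 ± 0.14 in control and 4.97 ± 0.18 (SD, n = 3 each) on the other arrays, below the median of all genes (adjusted p = 0.416, limma). IL1R1, the receptor through which both interleukin-1 forms signal, had a difference of 0.50 that missed the threshold (adjusted p = 0.0874).

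Of 22 measured genes for factors that act on the ICAM1 and VCAM1 promoters, NFKBIA and CEBPD were called higher and none lower. The shares over all genes were 0.688% higher and 1.21% lower. The list median was 0.033, beside 0.010 over all genes. The unadjusted p was under 0.05 for 7 of the 22, against 15.7% of all genes. NFKBIA encodes the IkB protein that holds NF-kB in the cytoplasm and is itself an NF-kB target, so its product restrains rather than drives these promoters. Its difference was 0.88 (SE 0.13, limma adjusted p = 0.0126), and that of CEBPD, a C/EBP factor of the acute phase response, was 1.03 (SE 0.17, adjusted p = 0.0219). Genes for NF-kB subunits were not called: RELA had a difference of -0.055, NFKB1 of 0.13 and NFKB2 of 0.19. REL had the largest difference among them, 0.58 (adjusted p = 0.0661). The call of NFKBIA was lost without control replicate 1 or 3 (0.0839 and 0.0797) and S153E-RKIP replicate 2 or 3 (0.0933 and 0.0698). That of CEBPD was lost without control replicate 1, 2 or 3 (0.132, 0.0501 and 0.107) and S153E-RKIP replicate 2 or 3 (0.125 and 0.0773). On their probe sets without the _s_at suffix the differences were 0.081 for NFKBIA and 0.17 for CEBPD.

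**Figure D4:**
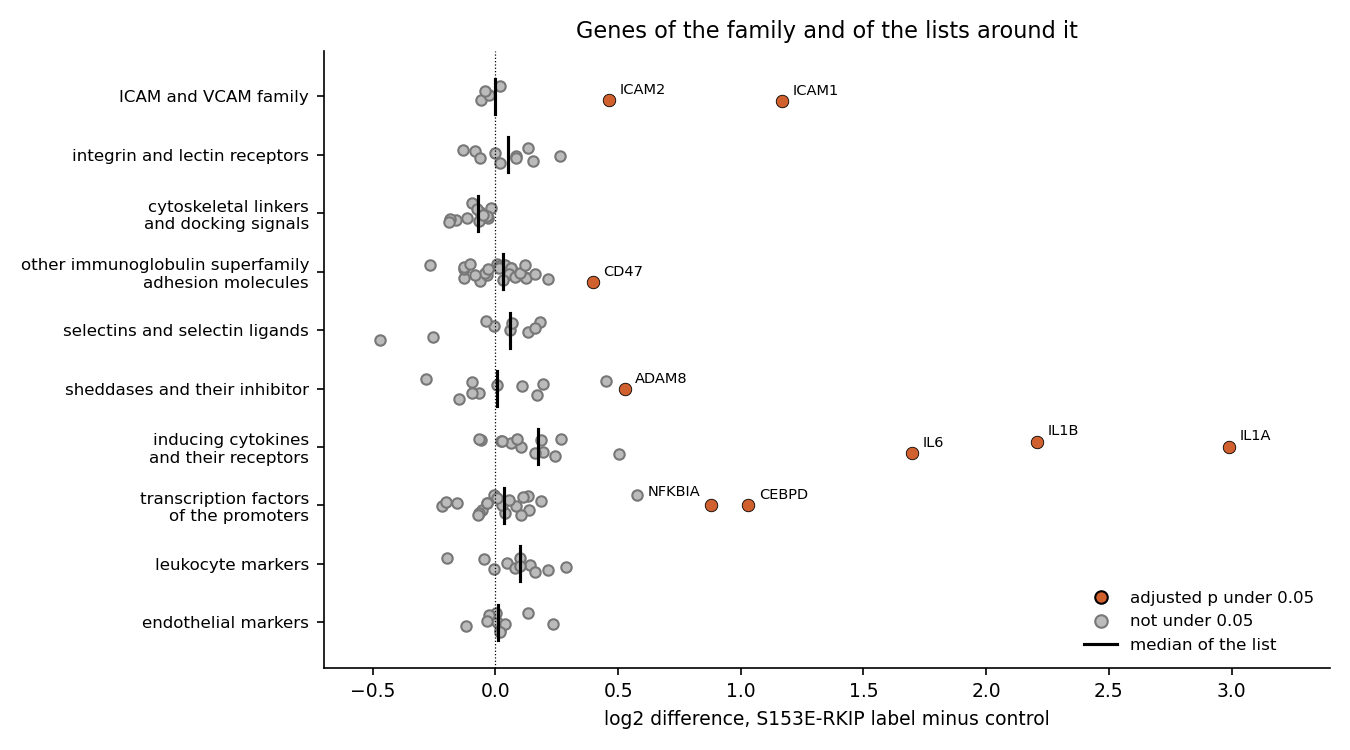
The log2 difference between groups (horizontal axis) of each measured gene of the family and of 9 lists around it, with genes of adjusted p under 0.05 in orange and named, and the list medians as black bars. Beside ICAM1 at 1.17 and ICAM2 at 0.46, the named genes run from CD47 at 0.40 to IL1A at 2.99.

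Because ICAM2 and ICAM3 are genes of endothelium and blood cells, markers of those cells are given beside them. None of 11 measured leukocyte markers passed the limma test, against 1.9% of all genes. The unadjusted p was under 0.05 for 3, against 15.7% of all genes. All 11 were dimmer than the median gene, with PTPRC at 3.88 in control and 3.98 on the other arrays. The differences ran from -0.20 for CD2 (limma adjusted p = 0.290) to 0.29 for CD3E (0.139). Of the 11 markers, 8 had a difference above 0, as did 10609 of all 19775 genes. Their median was 0.10, beside 0.010 over all genes, and the median over genes as dim as these was not computed. Their summed log2 signal ran from 55.84 to 56.42 in control and from 56.62 to 57.56 on the arrays labelled S153E-RKIP. The sums thus did not overlap, but sums of other lists were separate as well. Those of the promoter factors ran from 191.64 to 192.34 in control and from 193.45 to 195.69 on the other arrays. Those of the linker genes were lower, from 129.18 to 129.65 in control and from 128.20 to 128.37 on the other arrays. Among single genes 9.31% were separate with S153E-RKIP higher, a share that is no background for a sum. The part of the leukocyte markers in the rise of ICAM1 or ICAM2 was not tested. None of 10 endothelial markers was called in limma, against 1.9% of all genes, and 1 had an unadjusted p under 0.05, against 15.7%. CDH5 read 3.84 and 3.86, VWF 5.16 and 5.29 and PECAM1 7.21 and 7.22 in control and on the other arrays. The summed endothelial signal ran from 53.01 to 54.08 in control and from 53.78 to 53.87 in the other group.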

How the data were processed

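Transcript levels of 3 control and 3 S153E-RKIP-labelled samples were read from the deposited table alone. The deposited values are log2 signals, and the submitters' processing notes name RMA, which corrects background, normalises arrays by quantiles and sums up the probes of a probe set. Its version and the annotation were not given in the sources used here. Per the labels' protocols, biotinylated cRNA was made from 1 µg of total RNA. The kit they name is a whole-transcript terminal labelling kit, whereas this array reads 3′ ends, and which chemistry was used could not be settled here. The table holds 54675 probe sets, of which 62 control probe sets were left out. Of all, 41097 have 1 gene symbol in the platform annotation, 1801 several and 11777 none. By gene identifier 41043 matched RefSeq and 0 symbols changed. Arrays with identical values were not found, and medians ran from 5.60 to 5.67. Genes (brightest probe set) and single probe sets were each fitted in limma 3.58.1 (R 4.3.3; lmFit, eBayes, two-sided) with Benjamini-Hochberg adjustment over the whole table. The number of arrays limits the precision. The fit was tested on simulated data of 19775 genes, 50 of them changed. It recovered 13 of the 50 at 1.25-fold, 34 at 1.5-fold, 47 at 2-fold and 50 at 4-fold, with 3 false calls each. Some genes of the lists were not analysed here, and counts cover the others. The members and lists were chosen with earlier results of these data known. Named were the members, PEBP1, HMGA2, called list members (up to 4 a list), the 3 genes most alike each called member, receptors and defining markers. ERN1, PODXL, EPCAM, REL, IL1R1, TNF, RELA, NFKB1, NFKB2, ADAM17 and TIMP3 were named outside that rule, most after their values were seen. Also outside it, S1PR2, MRPL4, ZGLP1, FDX2, RAVER1, TYK2, CDC37 and PRR29 were named for their place near a member. Alternatives covered normalisation, variance model, array weights, replicate block, dim filters, probe set choice, threshold and each array left out. Figures used matplotlib 3.10.9.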

Additional observations from a re-analysis of the deposited data

How the results depend on the processing

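ICAM1 kept its direction and its call under all 17 alternatives that could measure it, from 1.05 to 1.28. ICAM2 kept its direction under all 18, from 0.42 to 0.53, and lost its call at a threshold of 0.01 and without any 1 of 5 arrays. The count of called members, 2, was 1 at a threshold of 0.01 and 1 without probe sets ending in _x_at or _s_at, which leave no probe set for ICAM1. It ran from 1 to 2 with 1 array left out. The count of called probe sets, 5, was 3 at a threshold of 0.01 and ran from 2 to 4 with 1 array left out. Over all genes the 376 calls became 600 with trend and robust estimation, 147 at a threshold of 0.01, 237 without probe sets ending in _x_at or _s_at, and 124 to 303 with 1 array left out. The difference of ICAM3 was 0.0035 after quantile normalisation again. That of ICAM5 was -0.0016 after it, -0.018 with equal medians, and -0.033 over genes and -0.012 over probe sets after loess. With 1 array left out, ICAM4 ran from -0.12 to 0.024 and ICAM5 from -0.043 to 0.078. IL1A had -0.21 without probe sets ending in _x_at or _s_at. The cause of these shifts was not tested. With a replicate block, 332 genes, 2 members and 5 member probe sets were called. Deviations of same-numbered arrays correlated at 0.13, 0.26 and -0.044, and those of differently numbered arrays at -0.265 to 0.133. These values do not settle whether the numbers pair the samples, and the main fit did not pair them. At the level of genes, filters on dim features left out ICAM4, ICAM5 and VCAM1 and gave them no value. Below the median signal, changes may be hidden by background.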
